A study of Drosophila melanogaster with 2 samples.

Results

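The genes described here encode the subunits of Mediator, the TBP-associated factors (TAFs) of the general factor TFIID, and the subunits of the nuclear and mitochondrial RNA polymerases of Drosophila melanogaster. They were taken from the Ensembl annotation by symbol: every protein-coding gene whose symbol starts with MED or Taf and a digit, or with Polr. This gave 71 of 13968 protein-coding genes, of which 25 belong to Mediator, 15 to the Taf group, 7 to polymerase I, 13 to polymerase II and 10 to polymerase III, with PolrMT, the mitochondrial polymerase, as the last. The rule uses the symbols alone.

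The measurement was ChIP-seq of CG12299, a predicted zinc-finger protein, in whole embryos aged 0 to 24 h from a transgenic fly line that stably makes CG12299 with GFP at its C terminus. An antibody against GFP was used, and both biological replicates belong to 1 group, so there is no second genotype, stage or treatment. Whole embryos of a day-long collection mix all cell types and stages, and the lists cannot say in which cells a site was occupied. The authors deposited 4 peak lists in dm6 coordinates: a thresholded list of 3672 peaks, a pooled list and a list for each replicate, the last 3 with 30000 peaks each. The peaks of the thresholded list were exactly the strongest peaks of the pooled one. Each peak has a signalValue, the authors' score, whose scale is not given, so it serves below only for ranking and description inside 1 list. Read depth is unknown.

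RNA polymerase II is brought to a promoter by the general transcription factors, of which TFIID, made of the TATA-binding protein and the TAFs, reads the core promoter. Mediator links DNA-bound regulators to the polymerase through its head, middle and tail modules, and a separable kinase module regulates it. Polymerase I transcribes ribosomal RNA and polymerase III transcribes transfer RNAs and other short RNAs, and several subunits are shared between these enzymes. A peak at one of these genes places CG12299-GFP near its transcription start site (TSS) and says nothing about its expression.

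Sequences reaching 50 bases to either side of the summit are shown for up to 2 thresholded peaks of each complex, so that the base composition and words counted below can be seen. They are the strongest of their complex on the arms shown that lie outside annotated UTRs, and not the strongest of all members. They were read from the release 6 genome on the strand of the named gene, 5′ to 3′. Capitals mark the words found among those searched, on either strand: TATAAA, known as the TATA box, and the word TTTAAAA. The Taf4 and Polr2B windows hold TTTAAAA in the reverse direction, and in the Polr1D and Polr2J windows TATAAA overlaps its own reverse complement.
MED30 (dm6 chr3L:654187-654287, minus strand): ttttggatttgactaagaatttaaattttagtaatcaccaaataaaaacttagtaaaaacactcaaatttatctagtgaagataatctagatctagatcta
MED15 (dm6 chr2L:472417-472517, plus strand): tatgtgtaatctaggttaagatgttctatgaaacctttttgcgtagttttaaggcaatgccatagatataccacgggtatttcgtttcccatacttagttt
Taf4 (dm6 chr3L:16113530-16113630, plus strand): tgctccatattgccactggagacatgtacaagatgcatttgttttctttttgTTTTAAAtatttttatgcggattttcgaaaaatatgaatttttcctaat
Polr1D (dm6 chr2L:19134834-19134934, minus strand): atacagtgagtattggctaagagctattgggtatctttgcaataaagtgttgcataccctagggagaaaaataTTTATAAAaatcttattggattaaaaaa
Polr1B (dm6 chr2L:404146-404246, plus strand): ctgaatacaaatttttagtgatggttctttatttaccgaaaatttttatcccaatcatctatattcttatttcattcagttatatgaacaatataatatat
Polr2B (dm6 chr3R:14125653-14125753, plus strand): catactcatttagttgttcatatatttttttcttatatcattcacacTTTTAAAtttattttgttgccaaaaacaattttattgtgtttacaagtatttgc
Polr2J (dm6 chr2L:17410430-17410530, minus strand): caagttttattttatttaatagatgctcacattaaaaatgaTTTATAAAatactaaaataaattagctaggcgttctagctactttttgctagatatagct
Polr3E (dm6 chr3L:21031535-21031635, plus strand): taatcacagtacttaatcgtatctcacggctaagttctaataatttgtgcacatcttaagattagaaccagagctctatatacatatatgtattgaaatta
The 8 windows are rich in A and T, with GC contents between 21.8% for Polr1B and Polr2B and 34.7% for MED15. Searched words were found in 4 of the 8.

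Of the 71 genes, 24 had a thresholded summit no more than 1000 bp from a TSS (33.8%, 95% exact binomial interval 23.0 to 46.0), against 21.7% of all protein-coding genes. By complex the count was 9 of 25 Mediator genes (36.0%), 5 of 15 Taf genes (33.3%), 3 of 7 polymerase I genes (42.9%), 6 of 13 polymerase II genes (46.2%) and 1 of 10 polymerase III genes (10%, interval 0.253 to 44.5). The intervals cover counting error only, and those of the complexes overlap each other and the share of all genes. Each replicate's 3672 strongest peaks gave like totals, 26 genes in replicate 1 and 24 in replicate 2, against 22.0% and 21.2% of all protein-coding genes. The counts of the small groups moved more: the Taf count was 3 in replicate 2 taken alone and 7 in replicate 1, the polymerase I count was 1 and 2, and the polymerase III count was 3 in either. Among those 7, Taf10 and Taf10b share 1 peak, at rank 3631 of replicate 1. In the pooled list 58 of the 71 genes had a summit in range (81.7%), against 63.5% of all protein-coding genes. The replicate lists held 60 each, against 62.9% in replicate 1 and 63.6% in replicate 2 for all protein-coding genes. Among genes with a pooled summit, 41.4% of these 58 also had a thresholded one (24 genes, interval 28.6 to 55.1), against 34.2% of all protein-coding genes so marked.

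Most of these genes share their promoter region with a neighbour. Another protein-coding gene starts on the opposite strand within 1000 bp upstream, a divergent arrangement, for 51 of the 71 (71.8%), against 5001 of the 13897 other protein-coding genes (36.0%). Thresholded summits were found at 21 of the 51 divergent members (41.2%), against 1890 of the 5001 other divergent genes (37.8%); over all protein-coding genes with divergent promoters the share was also 37.8%. Among the rest it was 3 of 20 members (15.0%), against 1122 of 8896 other genes (12.6%), and 12.6% over all protein-coding genes of that arrangement. Within either arrangement the members' share was thus near that of the genome, and the part of the arrangement in the gap between 33.8% and 21.7% was not tested. Among divergent promoters alone 8 of 19 Mediator genes (42.1%), 5 of 12 Taf genes (41.7%), 2 of 4 polymerase I genes, 5 of 8 polymerase II genes (62.5%) and 1 of 7 polymerase III genes (14.3%) had a thresholded summit, counts too small to set apart. The split by arrangement was chosen after values had been seen.

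**Figure D1:**
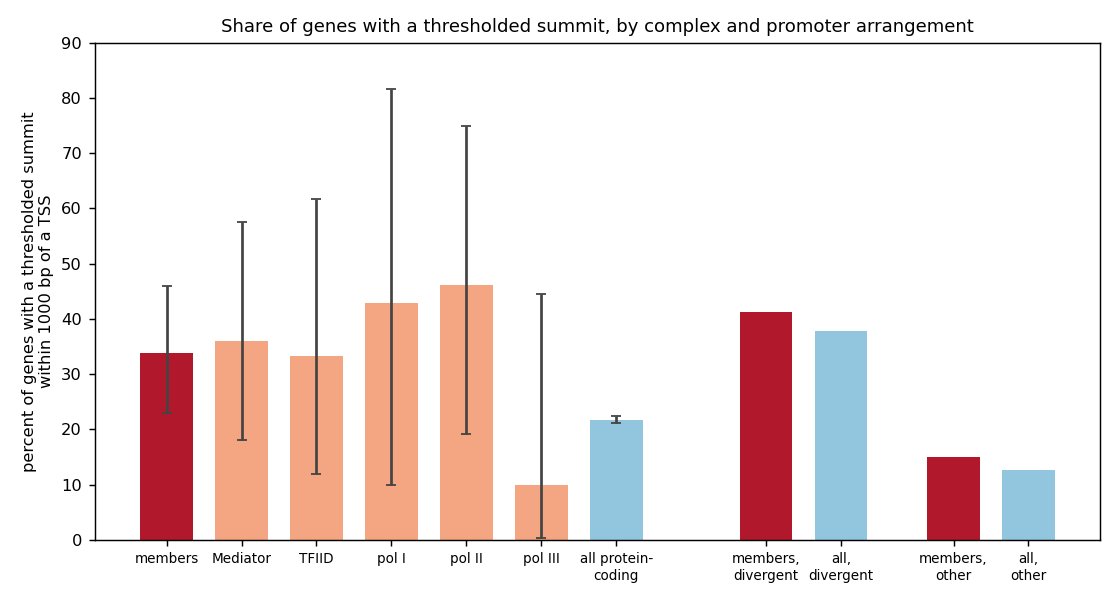
Percent of genes whose TSS has a thresholded summit within 1000 bp, for all 71 members, for each complex, and for all protein-coding genes (left, bars with 95% exact binomial intervals), and for members and all protein-coding genes split by promoter arrangement (right). Members stand at 33.8% against 21.7% before the split, at 41.2% against 37.8% for divergent promoters, and at 15.0% against 12.6% for the others.

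Among Mediator genes the strongest peaks lay at MED30 and MED15. The MED30 peak had a signalValue of 377 and ranked 333 in the pooled list, with its summit 148 bp upstream of the TSS. Rev1, transcribed the other way, starts nearer to that summit at 126 bp. MED15 encodes a tail subunit that activators contact in yeast and animals. Its peak, of 345 and rank 385, lay 546 bp upstream, and CG4297, transcribed the other way, starts nearer to it at 267 bp. Both were strong in either replicate, at ranks 315 and 349 for MED30 and 254 and 597 for MED15 in replicates 1 and 2. MED27 followed with 237 at 127 bp upstream, in front of the opposed gene elm.

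The middle module, which in yeast connects head and tail, had thresholded peaks at 3 of 9 genes. MED4 had a signalValue of 200 at 185 bp upstream, with no other protein-coding TSS in range. MED7 had 150 at 130 bp upstream, where Cap-H2 starts in the other direction, and MED31 had 135 at 171 bp upstream, where CG9775 is nearer. These are neighbours in the same module of the protein complex, and their genes ranked from 1139 to 2366 in the pooled list. MED1, the middle subunit bound by nuclear receptors in mammals, had a pooled peak only, of 77.3 at 80 bp downstream. MED10 and MED9 had 79.1 and 54.0, and MED19 had 103, just under the lowest score in the thresholded list, 107. MED19 ranked 7841 in replicate 1 and 2565 in replicate 2. MED21 had no summit in range in any list, and the nearest thresholded summit was 2020455 bp away.

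The head module, which in yeast contacts polymerase II, had thresholded peaks at 2 of 7 genes. MED17, its central subunit, had a signalValue of 198 at 144 bp upstream and ranked 1062 and 1722 in replicates 1 and 2. MED6 had 129 at 13 bp downstream of 1 of its 5 TSSs, inside the gene, and its replicates differed most among the thresholded peaks at Mediator genes, at rank 8322 in replicate 1 and 1607 in replicate 2. MED8 (78.8), MED18 (43.2) and MED20 (29.8) had pooled peaks only, the last at rank 29100 of the pooled list and present in replicate 2 alone of the replicates. MED11 had a peak in each replicate list but none in the pooled list, and MED22 had none anywhere.

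The tail, through which many activators act, had thresholded peaks at MED15 and at MED16. MED16 scored 107 at 212 bp upstream and was the weakest member that passed, and CG11170 starts nearer to its summit. MED23 and MED25 had pooled peaks of 94.2 and 63.1, and MED24 had a summit in replicate 2 alone, at rank 6298. MED28 had 96.1 in the pooled list. MED14, the scaffold that joins the modules, had no summit in range in any list. MED26, on the small chromosome 4, had a peak at rank 2555 in replicate 2 and none in replicate 1 or in the pooled list. In all, 19 of the 25 Mediator genes had a pooled summit, with a median signalValue of 103. Each module thus held genes with and without a thresholded peak: 2 of 7 head, 3 of 9 middle and 2 of 5 tail genes passed. MED26 was counted in the middle module. MED14, MED27, MED28 and MED30 were counted outside these 3 modules, and of them MED27 and MED30 passed.

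**Figure D2:**
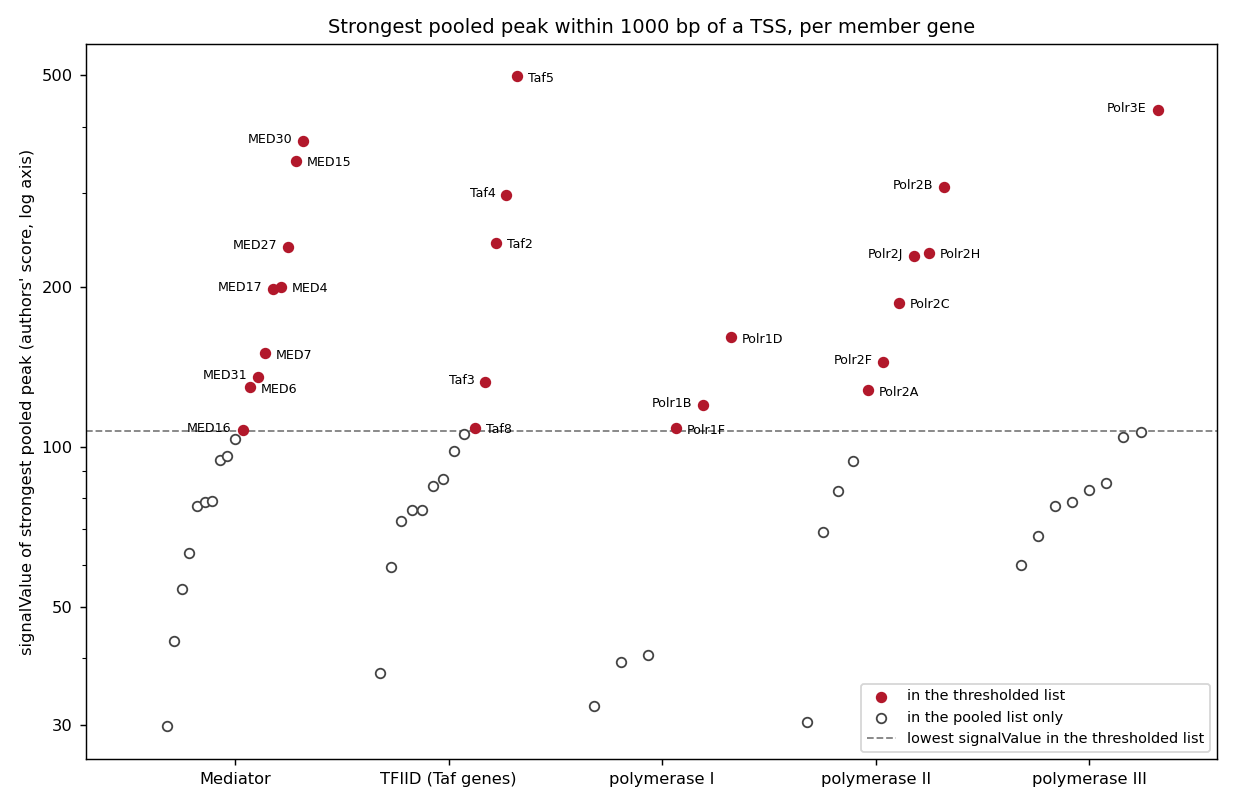
SignalValue (the authors' score, log axis) of the strongest pooled peak within 1000 bp of a TSS for the 58 members that have one, by complex and sorted within each. Filled points are in the thresholded list, open points in the pooled list only, and the dashed line is the lowest thresholded score, 107. Taf5, Polr3E, MED30 and MED15 lead, and a run of open points lies just under the line.

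Taf5 had the strongest peak of all 71 genes. It encodes a scaffold subunit of TFIID with WD40 repeats. Its summit, 170 bp upstream, had a signalValue of 498 and ranked 182 in the pooled list, 217 in replicate 1 and 173 in replicate 2. Pex6, a peroxisome biogenesis gene transcribed the other way, starts nearer to it. Taf4, which pairs with Taf12 through a histone fold, had 297 and rank 525, at 210 bp upstream of an inner one of its 3 TSSs. Taf2, a subunit that contacts the Initiator element, had 2 thresholded peaks, of 242 at 117 bp upstream and of 207 at 316 bp upstream, and CalpB starts nearer to the stronger one.

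Taf3, on chromosome 4, had 133 at 59 bp downstream, and Taf8 had 109 at 699 bp upstream, where Mvb12 is nearer. Both ranked lower in replicate 2 than in replicate 1: 2043 and 4326 for Taf3, 3551 and 4380 for Taf8. Taf8 is the member whose summit lies furthest from its TSS within the limit of 1000 bp. Of the members without a thresholded summit in range, the closest one lay 1281 bp downstream of a MED20 TSS.

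The other Taf genes had weaker or no peaks. Taf13 missed the thresholded list with a pooled signalValue of 106, and its histone-fold partner Taf11 had 59.5, ranking 26773 in replicate 1 and 6491 in replicate 2. Taf12 had 98.1, and Taf1, which encodes the largest subunit, 86.9. Taf7, which binds Taf1, had 84.2. Taf6 and Taf9, a further histone-fold pair, had 72.4 and 37.5. Taf10 and Taf10b, adjacent paralogs in opposite orientation, share 1 pooled peak of 75.9, with the summit 34 bp upstream of Taf10 and 11 bp upstream of Taf10b. That peak ranked 3631 in replicate 1 and 18135 in replicate 2. Taf12L, the testis form of Taf12, had a summit only in replicate 1, at rank 26331. Among genes whose products pair directly in TFIID, some differed in score, as Taf4 (297) and Taf12 (98.1) did. Taf1 (86.9) and Taf7 (84.2) had scores close to each other.

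Polymerase I genes had thresholded peaks at Polr1D, Polr1B and Polr1F. Polr1D, a subunit shared by polymerases I and III, had 2 thresholded peaks inside the gene, at different ones of its 2 TSSs. One, of 161, lay 349 bp downstream of the outer TSS, and the other, of 109, lay 158 bp upstream of the inner one. Polr1B, the second largest subunit, had 120 at 89 bp upstream. Polr1F, a stalk subunit in yeast and human, had 108 at 218 bp upstream, and Rat1, a nuclear exonuclease gene transcribed the other way, is nearer. Both ranked higher in replicate 1 than in replicate 2, at 2831 and 6592 for Polr1B and 4055 and 6896 for Polr1F, so that neither was among the strongest 3672 of replicate 2. Polr1A, the largest subunit, had only 39.3 in the pooled list and no peak in replicate 2. Polr1C had 40.5 and Polr1H 32.6, and Polr1E had no summit in any list.

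Polymerase II had thresholded peaks at the genes of both large subunits. Polr2B, the second largest subunit, had a signalValue of 308 at 88 bp upstream and ranked 562 and 432 in replicates 1 and 2, with 140up starting in the other direction. Polr2A, which carries the C-terminal repeat domain, had 128 at 188 bp upstream, where CG11699 is nearer. It ranked 1724 in replicate 1 and 5502 in replicate 2. The assembly partners Polr2C and Polr2J, which pair in the core of the enzyme, had 187 at 135 bp upstream and 229 at 74 bp upstream. GatC starts nearer to the Polr2C summit.

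Of the polymerase II genes whose products also serve polymerases I and III, Polr2H had 232 at 144 bp upstream, where CG11247 starts nearer. Polr2F had 144 at 39 bp upstream, where no other protein-coding TSS was in range. Polr2E had 94.2, with the widest gap between replicates among the polymerase II genes, at rank 18976 in replicate 1 and 2531 in replicate 2. Polr2K had 82.6 and Polr2L 30.3, and Polr2L had no peak in replicate 2. With Polr1C and Polr1D, 3 of the 7 genes for shared subunits had a thresholded peak. Polr2D and Polr2G encode the stalk of the enzyme. Polr2D had no summit in any list and Polr2G had one in replicate 1 alone, at rank 22209. Polr2I, known in yeast for accurate start-site choice, had 69.3, and Polr2M had no summit.

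Polymerase III had 1 strong peak and many below the threshold. Polr3E, whose yeast counterpart acts in initiation and termination, had a signalValue of 430 at 240 bp upstream, second only to Taf5 among the 71 genes. It ranked 215 and 324 in replicates 1 and 2. CG10584, in the opposite orientation, starts nearer to it. Polr3F had 104, at rank 3837 of the pooled list, just past the 3672 peaks that passed. The matching peaks ranked 6537 in replicate 1 and 3222 in replicate 2. Replicate 1 also had a separate peak at Polr3F, 522 bp upstream of a TSS and at rank 2430, so that the gene, though not this peak, was among the 3672 strongest of both. Polr3G was among the strongest of replicate 2 alone, at rank 2976, and either replicate taken alone gave 3 polymerase III genes in place of 1.

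The large subunits Polr3A and Polr3B had 77.2 and 59.9 in the pooled list. Polr3K had 85.5, Polr3G 82.8, Polr3C 78.7 and Polr3D 67.8, and Polr3I had a weak summit in replicate 2 alone. Polymerase III thus had a pooled summit at 9 of 10 genes, and its median pooled signalValue was 82.8, against 136 for polymerase II, 103 for Mediator, 92.5 for the Taf genes and 74.5 for polymerase I. Across the largest and second largest subunits of the 3 nuclear enzymes, 3 of 6 genes had a thresholded peak: Polr1B, Polr2A and Polr2B. PolrMT had weak summits in both replicates and none in the pooled list.

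Over all members with a pooled summit the median signalValue was 97.1 and the median rank 4332.5, against 78.7 and 6187 for all protein-coding genes with one. Among thresholded peaks alone the members' median was 192, in a range of 107 to 498, against 163 in a range of 107 to 1884 for all protein-coding genes. The members' median was above the value of 62.5% of those genes. Of the 34 members with a pooled but no thresholded summit, 8 ranked within the first 5000 and 26 within the first 10000 peaks. The thresholded list thus divides members of nearly equal score: MED16, Polr1F and Taf8 at 107, 108 and 109 were in it, and Taf13, Polr3F and MED19 at 106, 104 and 103 were not. No summit in any list was found for 6 genes: MED14, MED21, MED22, Polr1E, Polr2D and Polr2M.

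A summit was in range in both replicates for 55 members, in replicate 1 alone for 5 and in replicate 2 alone for 5. Among the 3672 strongest peaks it was both for 18, replicate 1 alone for 8 and replicate 2 alone for 6. Of the 24 members with a thresholded summit, 17 were among the strongest of both replicates, and Polr1F of neither. All 24 thresholded peaks overlapped a peak of each replicate by at least 1 bp. The authors derived that list from both replicate lists and the pooled one, per the deposited manifests, so the overlap is no independent check. Their replicate signalValues had a Spearman's rho of 0.832 over 24 peaks, and those of the 52 pooled peaks matched in both had 0.676, across genes that share the same 2 libraries. Replicate summits of the 24 were a median of 33.5 bp apart, from 1 bp at Taf3 to 146 bp at Taf2. At Taf2, replicate 1 had 1 summit in range, 257 bp upstream, between the 2 thresholded summits at 117 and 316 bp upstream. Replicate 1 gave the better rank for 13 of the 24 and replicate 2 for 11.

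**Figure D3:**
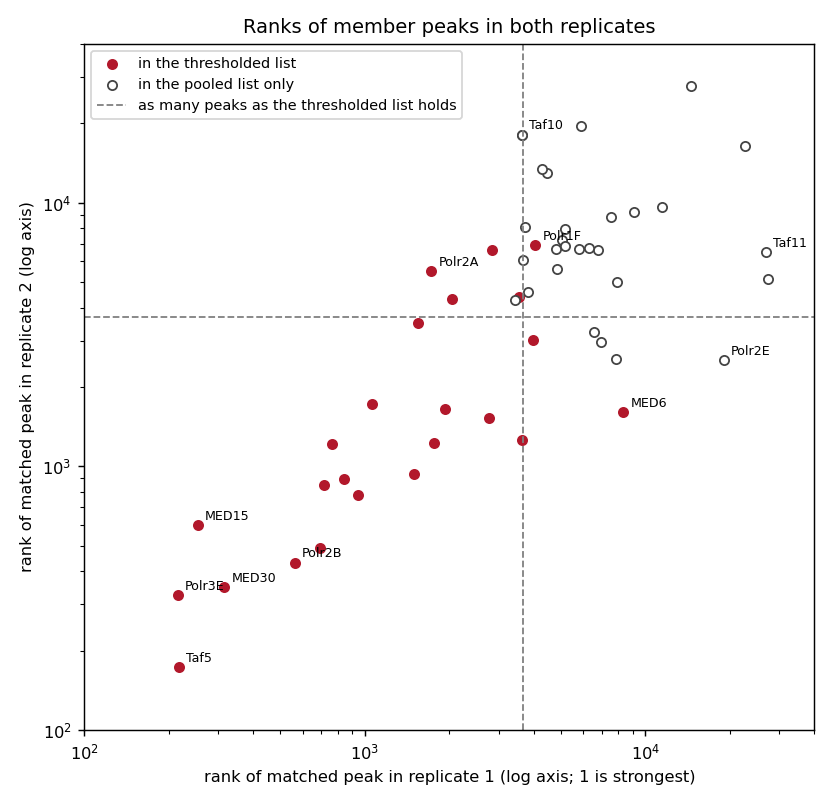
Rank by signalValue of the peak matched in replicate 1 (x) and in replicate 2 (y) for members with a pooled summit, log axes, with 1 the strongest. Dashed lines mark rank 3672, the length of the thresholded list. Taf5, Polr3E, MED30 and MED15 are strong in both, while Polr2E, MED6, Taf10 and Polr2A rank far apart.

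Thresholded summits at these genes clustered upstream of the TSS. The summit lay upstream for 21 of 24 genes (87.5%), against 2339 of 3036 protein-coding genes with a thresholded summit (77.0%). The exceptions were Polr1D, Taf3 and MED6. The median position was 144 bp upstream, with the quartiles at 193.5 and 88.75 bp, against 128 bp for all protein-coding genes, whose quartiles were 235 and 13 bp upstream. The band from 50 to 250 bp upstream held 18 members (75%), against 46.4% of protein-coding genes with a thresholded summit. Divergent promoters made up 21 of these 24 members and 1911 of the 3036 genes, and positions were not split by arrangement. For the polymerase II genes all 6 summits lay between 39 and 188 bp upstream. By annotation 13 of the 24 summits were intergenic, 5 in a 5′ UTR, 3 in an intron and 3 in another exon. The same split is not given for all genes, so it describes these summits only.

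**Figure D4:**
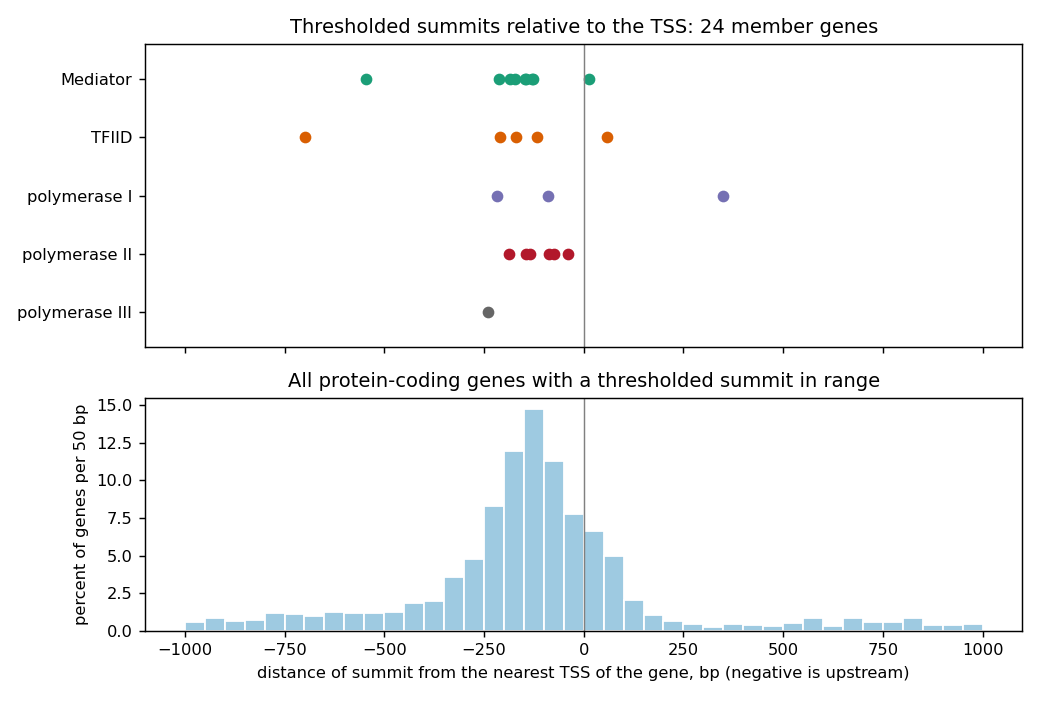
Signed distance in bp from the nearest TSS of the gene to the summit of its strongest thresholded peak, negative upstream. The upper panel shows the 24 members by complex, and the lower panel shows all 3036 protein-coding genes with such a summit, as percent per 50 bp; 18 members lie between 50 and 250 bp upstream.

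Neighbouring genes bear on these counts directly. For 20 of the 24 members another protein-coding TSS also lay within 1000 bp of the summit, the exceptions being MED4, Polr1B, Polr1D and Polr2F. The summit lay between the member and an opposed neighbour, head to head, for 14 of 24 (58.3%), against 42.2% of protein-coding genes with a thresholded summit. A neighbour's TSS was nearer to the summit for 12 of 24 (50%), against 30.9%. When each summit was given to its nearest protein-coding gene alone, 12 of the 71 members kept one (16.9%), against 15.5% of other protein-coding genes. By that count Mediator had 5, Taf genes 2, polymerase I 2, polymerase II 3 and polymerase III none, since the Taf5 and Polr3E peaks then belong to Pex6 and CG10584. Which gene of such a pair a peak serves cannot be told apart from peak positions. The arms held thresholded members in counts of 6 of 14 on 2L, 2 of 10 on 2R, 6 of 17 on 3L, 7 of 21 on 3R, 2 of 7 on X and 1 of 2 on chromosome 4. Shares of all protein-coding genes by arm are not given here, so these counts set no arm apart.

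Base composition at the summits was low in GC. Within 50 bp of the 24 summits the GC content was 30.2% ± 10.2 (SD, n = 24 peaks), from 14.9% at MED17 to 60.4% at MED6, against 34.8% ± 10.4 (SD, n = 2412) at all thresholded summits within 1000 bp of a protein-coding TSS. Within 100 bp it was 33.0%, against 36.4%. The words searched there, on both strands, are known from fly promoters, except TTTAAAA, which was taken from an earlier account of these data. TATAAA was found at 6 members (25%), against 23.3% of the 2412 peaks: MED17, Taf5, Polr1D, Polr1F, Polr2H and Polr2J. TTTAAAA, which does not contain TATAAA, was found at 3 (12.5%), against 14.5%: MED17, Taf4 and Polr2B. GAGAG, a core of the GAGA factor's site, was found at 1 (4.17%), against 11.1%, at Polr2A.

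The site of the promoter factor DREF was not found in these windows. TATCGATA was found at 0 of 24, against 3.03% of the 2412 peaks. A count of 0 allows a share of up to about 12.5%, by an approximate bound of 3 in 24 and not an exact interval. TCGATA, which lies within TATCGATA and holds the core bound by the insulator protein BEAF-32, was found at 0 of 24, against 10%. Motif 1 of fly core promoters was found at 0 of 24, against 1.08%, and Motif 6 at 1, Polr1F, against 0.663%. CAGCTG, an E-box, was also found at 0 of 24, against 4.52%. Within 100 bp TATCGATA was found at 2 members (8.33%), against 6.55% of the 2412 peaks. TCGATA was found there at 4 (16.7%), against 19.2%. GAGAG was found there at 1 (4.17%), against 23.5%, and TATAAA at 10 (41.7%), against 36.4%. These shares were not tested against those of all peaks, and 24 peaks leave them imprecise. A word says only that its letters are there.

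Other genes of the transcription machinery, whose symbols fall outside the rule, gave like shares. Those shares were not split by promoter arrangement or by nearest gene, as the members' were above. Of 50 such genes found in the annotation 18 had a thresholded summit in range (36.0%) and 42 a pooled one (84.0%), against 21.7% and 63.5% of all protein-coding genes. The kinase module of Mediator had pooled peaks at all 4 genes and thresholded ones at none: kto had 99.7, skd 92.4, Cdk8 88.4 and CycC 71.7. Of the TBP and TAF-like genes 2 of 8 passed, Trf2 with 196 and Bin1 with 134. A neighbour starts nearer to each summit, lawc for Trf2 and sra for Bin1. Of the general factors of polymerase II 7 of 17 passed. The strongest was Ssl1, a TFIIH subunit gene, at 1122, with Chro starting nearer at 74 bp from the summit. TfIIA-L had 235, Xpd 160 and TfIIB 127, and their neighbours pll, LSm1 and Bug22 start nearer to those summits.

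Among genes of elongation and pausing 5 of 12 passed. Nelf-E and TH1, subunits of the pausing factor NELF, had 353 and 253, and RpL14 and mei-41 start nearer to those summits. Spt5 had 113, with Fak starting nearer to the summit, and CycT, a cyclin of the elongation kinase P-TEFb, had 137. Among the factors of polymerases I and III 4 of 9 passed. Bdp1 and Brf, which encode subunits of the polymerase III factor TFIIIB, had 394 and 351, and CG6565 and sds22 start nearer to those summits. Among the polymerase III subunit genes, Polr3E alone had a thresholded peak, of 430.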

How the data were processed

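ChIP-seq peak lists of CG12299-GFP in whole embryos came from 2 biological replicates. Per the labels the assembly is dm6 and chromatin was sheared by sonication. No aligner or peak caller is named in the sources used here. Deposited narrowPeak lists by the authors hold a signalValue that is a score of unstated scale. Per the deposited manifests, peaks were called against 1 control, and the thresholded list passed the authors' irreproducible discovery rate threshold. The deposited −log10 q-value column, tied at its top, served only as an alternative ranking. The pooled and replicate 2 lists each repeat 1 position, which was counted once.

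Summits within 1000 bp of any TSS of a gene (Ensembl release 115) were assigned to that gene, and the strongest gave its value. One summit can count for several genes. Shares carry 95% exact binomial intervals (scipy 1.17.1, Python 3.11.15), and depth is unknown. No test across samples is possible with 1 group. Single summits planted 1000 bp upstream of a TSS were assigned to the right gene for 200 of 200 genes. That checks the distance limit only, and not summits shared between genes. Sequences came from the release 6 genome, whose arm lengths contain all peaks. Words were counted at the 2412 thresholded summits near protein-coding genes. Of 58 further machinery symbols 50 matched. The 24 members with thresholded summits were described most fully; 1 gene is counted but not reported here by name. Members, lists and modules were chosen with earlier results of these data known. Alternatives covered windows, gene assignment, ranking, stringency, each replicate alone and promoter arrangement.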

Additional observations from a re-analysis of the deposited data

How the results depend on the processing

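The count of 24 members stayed within 1.5 times under 6 alternatives and ranged from 16, where the peak had to overlap the TSS, to 26. It was 44 at 5000 bp, where Mediator had 15, Taf genes 11, polymerase I 5 and polymerase III 4. It was 12 with the nearest protein-coding gene alone (Mediator 5, Taf 2, polymerase II 3, polymerase III 0) and 14 with the stronger 50% of thresholded peaks (Mediator 5, Taf 3, polymerase I 1). Requiring overlap with the TSS left 2 Taf and 0 polymerase III genes. With 1 replicate left out the counts ran from 24 to 26 for all members, from 3 to 7 for Taf genes, from 1 to 2 for polymerase I and stood at 3 for polymerase III. The share of other protein-coding genes, 21.7%, was 19.1% at 500 bp, 39.3% at 5000 bp, 12.7% with TSS overlap, 15.5% with the nearest gene alone, 20.1% with the 5′-most TSS and 12.0% with the stronger peaks. Among genes with a pooled summit it was 34.2%, and among divergent and other promoters 37.8% and 12.6%, against 41.4%, 41.2% and 15.0% of members. With 24 peaks and 2 replicates, shares by complex are imprecise, and unknown depth limits what an absent peak shows. No paired analysis was possible because there is 1 group and no test between samples.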
